A study of Homo sapiens with 21 samples.

Results

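IGROV-1 is an established cell line from an ovarian carcinoma, and IGROV-1/CDDP is a resistant derivative of it, selected in culture with cisplatin (CDDP is an abbreviation of the drug's chemical name). These are 2 of the 21 mRNA libraries of the series, which holds 17 cell lines in all, and they were chosen by their cell line labels alone. IGROV-1 is labelled sensitive and carries no drug label, whereas IGROV-1/CDDP is labelled resistant with cisplatin as its drug. Both were grown in the same serum-supplemented RPMI medium at atmospheric oxygen. Whether cisplatin was present when the cells were lysed is not given in the sources used here, and IGROV-1/CDDP is a single derivative, so that what distinguishes it cannot be told apart from what any subline of IGROV-1 may have acquired. Of 53515 genes in the count tables, 14732 reached at least 1 CPM (counts per 1000000 counts on genes) in either library and were compared. The comparison asks how gene expression of the resistant cells differed from that of their parental cells.

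Cisplatin enters cells partly through copper and organic cation transporters and volume-regulated anion channels, is bound by glutathione and metallothioneins, and kills by linking neighbouring bases or opposite strands of DNA. Intrastrand links are removed by nucleotide excision repair, interstrand links by the Fanconi anaemia pathway together with homologous recombination, and mismatch repair proteins couple the remaining lesions to cell death. Reduced uptake, greater export or conjugation, and altered repair or death signalling are textbook routes to resistance in ovarian cancer cells, and epithelial-to-mesenchymal transition, in which cells give up cadherin-1 junctions and keratins for mesenchymal adhesion and matrix genes, is another.

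The libraries held 27485701 (IGROV-1) and 25281198 (IGROV-1/CDDP) counts on genes, at which 3 counts correspond to 0.109 and 0.119 CPM. With 1 library for each cell line no test between them was possible, so each difference below is a comparison of these libraries. Differences are given as log2 fold changes of CPM + 1, IGROV-1/CDDP minus IGROV-1, with a 95% interval in brackets that covers counting error only. Gene levels of the pair had a Spearman correlation of 0.96 across 19172 genes, against 0.79 to 0.85 between IGROV-1 and the 18 libraries of the other cell lines that held counts on every chromosome. Of the ovarian carcinoma markers, PAX8 was high in both libraries (664 CPM in IGROV-1 against 515 CPM in IGROV-1/CDDP), whereas WT1 and WFDC2 had no count in either and EMX2, MUC16 and MSLN stayed below 1 CPM. The other 4 markers were lower in IGROV-1/CDDP, namely KRT7 (204 and 0.119 CPM), KRT8 (127 and 29.4 CPM), KRT18 (151 and 97.3 CPM) and EPCAM (5.97 and 0.316 CPM), and all 10 markers summed to 1154 and 642 CPM. Marker sums of other cell types were 0.291 and 0.158 CPM for hepatocytes, 5.60 and 12.5 CPM for leukocytes, 5.75 and 5.62 CPM for fibroblasts, 10.0 and 11.4 CPM for endothelium, 38.9 and 23.2 CPM for lung adenocarcinoma and 35.9 and 47.4 CPM for neural cells. The part of these markers in the results was not tested.

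In IGROV-1/CDDP, 817 genes (5.55% of those counted) were at least 2-fold higher and 1062 genes (7.21%) at least 2-fold lower than in IGROV-1. These shares are the background for the counts of every gene list below. The lists and their members were chosen with earlier results of these data known, so their counts and medians are descriptions only. At least 4-fold differences were found for 185 genes higher (1.26%) and 264 lower (1.79%). As a yardstick for differences between libraries of the same cells, the share of genes that differed at least 2-fold in either direction between 2 replicate libraries was 5.08% for HepG2, 4.89% for HCC4006P1, 0.0902% for HepG2S3 and 0.00696% for HCC4006ER, against 12.8% in the IGROV-1 pair. At 4-fold these shares were 0.779%, 0.104%, 0.0150% and 0% (0 of 14358 genes), against 3.05%. The IGROV-1 pair therefore differed more than any of these replicate pairs, although no replicate of its own exists.

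**Figure D1:**
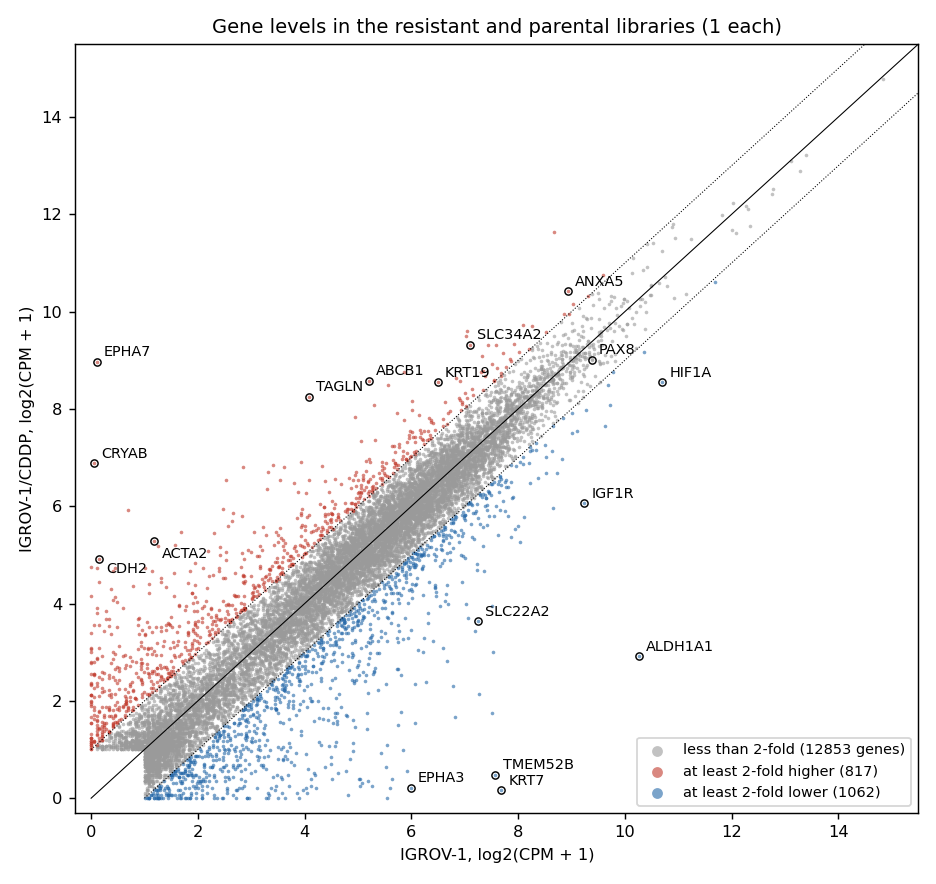
Gene levels as log2(CPM + 1) in IGROV-1 (horizontal axis) and IGROV-1/CDDP (vertical axis), 1 library each, with 1 point for each of the 14732 counted genes. The solid line marks equal levels and the dotted lines 2-fold differences; EPHA7, CRYAB and CDH2 lie near 0 on the horizontal axis, whereas KRT7, TMEM52B and EPHA3 lie near 0 on the vertical axis.

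Most of the genes with the largest positive log2 fold changes had few or no counts in the parental cells. EPHA7 (chr6:93949738-94129405, GRCh37), an ephrin receptor, had 2 counts in IGROV-1 (0.0728 CPM) and 12662 counts in IGROV-1/CDDP (501 CPM), a ratio of 6883 with a counting interval of 1905 to 56842. None of the 18 other libraries exceeded 77.7 CPM for this gene. CRYAB, the small heat shock protein alpha-B-crystallin, had 1 count (0.0364 CPM) in IGROV-1 against 117 CPM in IGROV-1/CDDP. NUPR1, a stress-induced nuclear protein, had 2 counts (0.0728 CPM) against 25.5 CPM, and CDH2, the mesenchymal N-cadherin, 3 counts (0.109 CPM) against 29.3 CPM. GLI3, a transcription factor of the hedgehog pathway, and JPH1, a junctophilin, had no count in IGROV-1 and were at least 154-fold and 237-fold higher in IGROV-1/CDDP. The remaining genes among the 12 with the largest positive log2 fold changes were PRUNE2, SHISA3, RXFP1 (the relaxin receptor), IGF2, TAGLN and ACTA2.

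A pair of these 12 genes encode smooth muscle proteins. TAGLN (transgelin) was at 15.9 CPM in IGROV-1 against 304 CPM in IGROV-1/CDDP, which was more than in any of the 18 other libraries, where it peaked at 77.1 CPM. ACTA2 (smooth muscle actin) was at 1.27 and 37.7 CPM. Desmin (DES), the muscle intermediate filament, had 0.146 and 3.80 CPM, and ANKRD1, a target of the YAP and TEAD transcription factors, 46.4 and 357 CPM. Of 15 counted YAP and TEAD targets, 2 (13.3%) were 2-fold higher and 2 (13.3%) were 2-fold lower, against 5.55% and 7.21% of all counted genes. Their median was 0.18, and the lowest was AXL (-4.10).

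The genes with the largest negative log2 fold changes had 37.6 CPM (KCNH7) or more in the parental cells. KRT7, a keratin of simple epithelia, had 5610 counts (204 CPM) in IGROV-1 against 3 counts (0.119 CPM) in IGROV-1/CDDP, a ratio of 1720 (588 to 8343). ALDH1A1, a retinaldehyde dehydrogenase, was at 1221 CPM in IGROV-1, above all 18 other libraries, against 6.57 CPM in IGROV-1/CDDP, a log2 difference of -7.34 [-7.52 to -7.14]. TMEM52B was at 190 and 0.396 CPM, and its neighbour OLR1, an oxidised lipoprotein receptor whose annotated span overlaps it, at 181 and 2.37 CPM. EPHA3, another ephrin receptor, was at 62.4 and 0.158 CPM, so that EPHA3 and EPHA7 differed in opposite directions. PLOD2, a collagen lysyl hydroxylase, was at 59.4 and 0.475 CPM. TOX3 had 1255 counts (45.7 CPM) in IGROV-1 and none in IGROV-1/CDDP, at least 385-fold lower. EFHD1, SLCO2B1, PLBD1, ANK2 and KCNH7 complete the 12 genes with the largest negative values.

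Epithelial genes were mostly lower in IGROV-1/CDDP. The study read this pair otherwise, with a marker set of its own that differs from the list used here. It classed the line as a partial transition without mesenchymal morphology, and reported no fall of its epithelial markers in such lines. Among them it named reduced EPCAM for the olaparib-resistant ovarian lines U10 and U100. Of 36 counted junction genes, 11 were at least 2-fold lower and 1 (MARVELD3, 2.40 and 13.6 CPM) at least 2-fold higher, with a median log2 fold change of -0.41, against -0.06 over all counted genes. Among 12 counted adherens junction and epithelial regulator genes, 6 were 2-fold lower, CDH1, EPCAM, SPINT2, ST14, SPINT1 and ELF3. SPINT2, an inhibitor of epithelial serine proteases, was at 145 and 9.77 CPM, 14.9-fold lower. The adhesion molecules CDH1 (12.95 and 0.593 CPM) and EPCAM had larger ratios at lower levels, 21.8-fold and 18.9-fold. Among 8 desmosome genes 3 were lower, namely DSC2 (129 and 15.0 CPM), PPL (60.6 and 8.74 CPM) and PKP2 (45.7 and 8.43 CPM). Among 16 tight junction genes only CGN (24.9 and 6.803 CPM) and CLDN16 (248 and 112 CPM) were lower, and the median of these genes was -0.16.

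Keratins split. The type II keratins KRT7, KRT8 (127 and 29.4 CPM) and KRT80 (95.1 and 7.44 CPM), which lie next to each other among the counted genes of chromosome 12, were lower in IGROV-1/CDDP. The type I keratins KRT19 (89.2 and 373 CPM) and KRT15 (0.910 and 5.85 CPM) on chromosome 17 were higher. Both lie in a stretch of that chromosome, described below, where most genes were higher. KRT18, also of type I, was lower but within 2-fold, at 151 and 97.3 CPM (log2 fold change -0.63).

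Mesenchymal genes differed in both directions. Of 26 counted members, 9 (34.6%) were at least 2-fold higher and 6 (23.1%) at least 2-fold lower, against 5.55% and 7.21% of all counted genes. The higher genes were mostly adhesion and matrix proteins, including FN1 (fibronectin, 29.7 and 227 CPM), the neural adhesion molecules L1CAM (14.3 and 120 CPM) and NCAM1 (12.99 and 88.0 CPM), and TIMP3 (0.873 and 9.41 CPM). None of the 6 counted transcription factors was 2-fold higher, whereas TCF4 (56.4 and 8.62 CPM) and TWIST1 (6.003 and 0.870 CPM) were lower. The receptor kinase AXL was the only 2-fold lower surface gene, with 23.6 and 0.435 CPM, and the lower matrix genes were POSTN (5.31 and 0.0396 CPM), LOX (10.6 and 2.93 CPM) and VCAN (617 and 251 CPM).

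The list with the lowest median was that of glycolysis and the hypoxia response. Of 35 counted genes, 20 were at least 2-fold lower in IGROV-1/CDDP and 0 were at least 2-fold higher, with a median log2 fold change of -1.09. HIF1A (chr14:62162231-62214977), the oxygen-regulated transcription factor that induces many of these genes, was at 1657 CPM in the parental and 374 CPM in the resistant cells (-2.14 [-2.18 to -2.11]). Its level in IGROV-1 was above those of all 18 other libraries (68.8 to 1172 CPM), and its level in IGROV-1/CDDP was above 7 of them. EPAS1, which encodes the related factor HIF-2 alpha, was at 115 and 109 CPM. Among 11 counted hypoxia response genes 8 were lower, including NDRG1 (123 and 20.8 CPM), the carbonic anhydrase CA12 (86.6 and 17.8 CPM), the mitophagy receptor BNIP3 (120 and 31.1 CPM) and the prolyl hydroxylase P4HA1 (151 and 53.1 CPM).

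Among 24 counted glycolysis genes 12 were at least 2-fold lower and the median was -0.99. PFKFB4, which makes an activator of phosphofructokinase, was at 34.1 and 4.27 CPM. The neuronal enolase ENO2 was at 256 and 47.4 CPM, the aldolase ALDOC at 36.5 and 6.96 CPM, and the phosphofructokinase PFKP at 161 and 35.2 CPM. PDK1 (39.9 and 13.1 CPM) and PDK3 (37.4 and 8.35 CPM), kinases that inhibit pyruvate dehydrogenase, were lower as well. The widely expressed enzymes differed less: GAPDH was at 3306 and 1556 CPM, ENO1 at 1252 and 1114 CPM, and the lactate dehydrogenases LDHA at 1732 and 1664 CPM and LDHB at 636 and 674 CPM. The 43 counted respiratory chain genes included none past 2-fold in either direction (median -0.16).

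In the olaparib-resistant ovarian lines U10 and U100, which have a parental line of their own (UWB1.289) in common, the same 35 genes had medians of 0.00 and -0.13. Of these genes, 1 was 2-fold lower and 2 were 2-fold higher in U10, against 5.11% and 6.27% of all genes counted there, and 0 were 2-fold lower and 1 was 2-fold higher in U100, against 1.73% and 6.43%. Those shares are over the genes counted in the UWB1.289 pairs. Of the 14732 genes counted in the IGROV-1 pair, 587 were 2-fold lower and 648 higher in U10, and 203 lower and 617 higher in U100. HIF1A was at 111 CPM in U10 and 132 CPM in U100, against 68.8 CPM in UWB1.289.

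**Figure D2:**
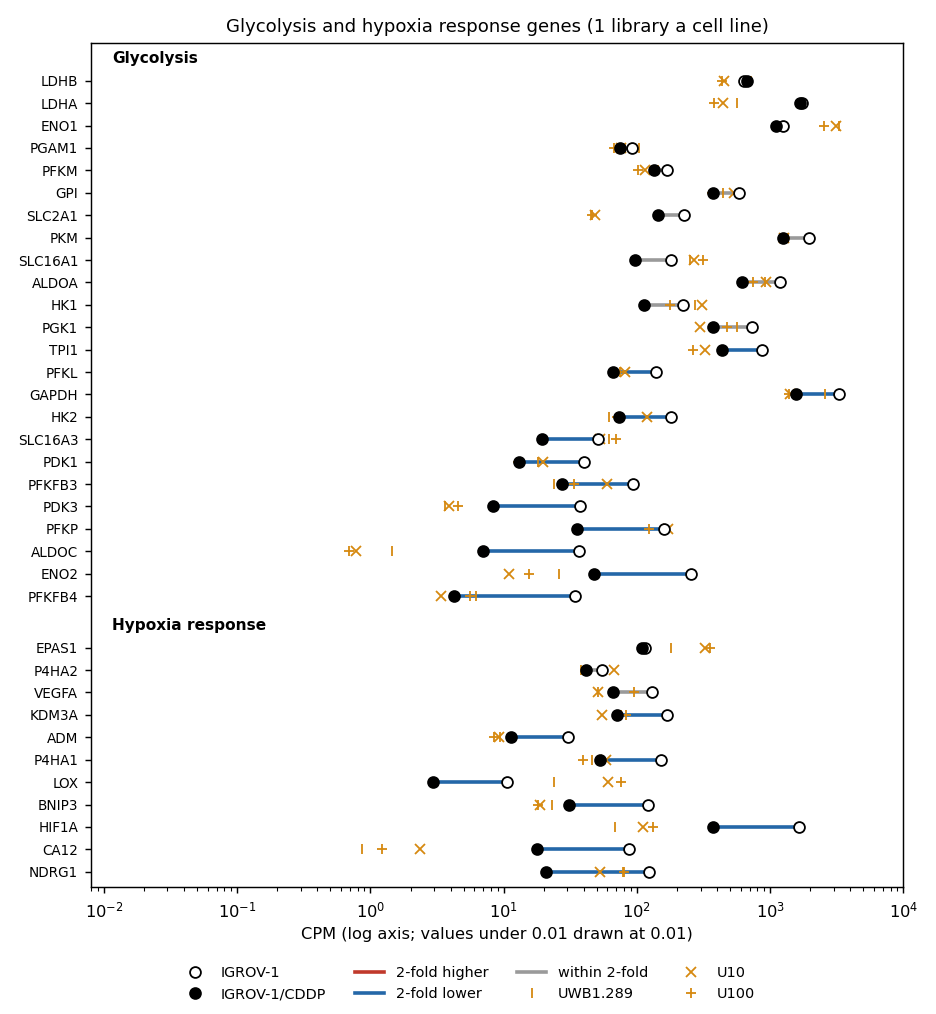
CPM (log axis) of the counted glycolysis and hypoxia response genes in IGROV-1 (open circles) and IGROV-1/CDDP (filled circles), joined by a blue line where at least 2-fold lower, with UWB1.289, U10 and U100 in orange; 1 library for each cell line. In 20 of 35 genes the filled circle lies at least 2-fold to the left, whereas LDHA, LDHB, ENO1 and EPAS1 nearly coincide.

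Hypoxia-inducible factors bind the core letters ACGTG. The promoters of 4 of these genes are printed to show where the letters occur, taken from RefSeq on GRCh38.p14 as 250 bases before to 50 bases after the start of each gene, in lower case, with ACGTG or its reverse complement CACGT in capitals. The 4 were those with the lowest log2 fold change among the 2-fold lower genes whose promoter held a match.
ENO2 (chr12:6914330-6914629, plus strand): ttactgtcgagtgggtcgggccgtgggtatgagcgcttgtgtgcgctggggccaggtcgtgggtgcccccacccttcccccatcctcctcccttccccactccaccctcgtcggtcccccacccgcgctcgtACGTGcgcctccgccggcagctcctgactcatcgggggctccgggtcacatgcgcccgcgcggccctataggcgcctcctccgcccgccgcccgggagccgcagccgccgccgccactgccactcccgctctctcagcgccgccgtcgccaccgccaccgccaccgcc
ALDOC (chr17:28576846-28577145, minus strand): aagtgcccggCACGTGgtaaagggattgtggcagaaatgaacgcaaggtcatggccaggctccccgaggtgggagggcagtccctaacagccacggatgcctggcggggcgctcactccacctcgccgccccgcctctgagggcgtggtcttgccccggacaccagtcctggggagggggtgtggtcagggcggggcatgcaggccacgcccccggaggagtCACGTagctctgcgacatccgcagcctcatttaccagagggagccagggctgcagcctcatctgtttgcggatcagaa
PDK3 (chrX:24465036-24465335, plus strand): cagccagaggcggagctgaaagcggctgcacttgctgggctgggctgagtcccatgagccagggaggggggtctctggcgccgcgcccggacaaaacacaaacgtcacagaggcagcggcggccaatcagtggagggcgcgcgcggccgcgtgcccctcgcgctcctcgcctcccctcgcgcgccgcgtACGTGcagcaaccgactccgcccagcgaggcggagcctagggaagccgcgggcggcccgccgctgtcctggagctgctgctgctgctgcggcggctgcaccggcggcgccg
BNIP3 (chr10:131981874-131982173, minus strand): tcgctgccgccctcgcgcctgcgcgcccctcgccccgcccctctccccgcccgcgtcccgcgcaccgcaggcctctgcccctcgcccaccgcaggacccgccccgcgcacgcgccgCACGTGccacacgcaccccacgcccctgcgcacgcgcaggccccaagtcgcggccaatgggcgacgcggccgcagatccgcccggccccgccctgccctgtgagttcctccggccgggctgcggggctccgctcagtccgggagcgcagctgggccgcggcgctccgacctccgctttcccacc
The run CACGTG in ALDOC and BNIP3 holds the letters on both strands and is also an E-box. A match was present in 5 of the 12 promoters found for 2-fold lower glycolysis genes and in 3 of the 7 for 2-fold lower hypoxia response genes, against 9 of 23 and 3 of 9 for all counted members and 5900 of 27305 promoters (21.6%) overall. Such a match describes the sequence only.

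Of 12 counted uptake carriers of cisplatin and copper, 4 (33.3%) were at least 2-fold lower in IGROV-1/CDDP, against 7.21% of all counted genes. At least 2-fold higher were 0 of them, against 5.55%. SLC22A2 (chr6:160592093-160698670), the organic cation transporter OCT2, was at 151 and 11.4 CPM, 13.2-fold lower (counting interval 11.8 to 15.0). In the 18 other libraries it did not exceed 0.993 CPM. Its neighbour SLC22A3 (OCT3) was at 85.4 and 20.0 CPM, and the next counted gene, MAP3K4, at 99.0 and 39.9 CPM. LRRC8D, the subunit of the volume-regulated anion channel that passes platinum drugs, was at 166 and 62.8 CPM, and the related LRRC8C at 111 and 43.4 CPM. Both lie in a stretch of chromosome 1, from SSX2IP to ABCD3, where most neighbours were lower too. The 43 genes of this stretch with at least 5 CPM had a median log2 fold change of -0.46. The copper importer SLC31A1 (CTR1) was within 2-fold, with 82.2 and 70.6 CPM (log2 fold change -0.22 [-0.30 to -0.13]).

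Among 11 counted export and copper chaperone genes, COX11 (35.9 and 125 CPM) and ATOX1 (11.02 and 23.4 CPM) were 2-fold higher and ABCC2, an exporter of glutathione conjugates, 2-fold lower (12.7 and 2.77 CPM). The copper-transporting ATPase ATP7B was at 9.82 and 19.4 CPM (0.91 [0.71 to 1.11]) and ATP7A at 25.8 and 19.5 CPM (-0.39 [-0.55 to -0.23]). Of 13 counted drug efflux genes, 4 were lower and 1 was higher. The higher gene was ABCB1 (chr7:87132333-87342639), the multidrug pump P-glycoprotein, with 35.8 and 382 CPM (3.38 [3.29 to 3.47]), which was above all 18 other libraries (at most 195 CPM). RUNDC3B, which overlaps ABCB1 on the other strand, was at 2.62 and 24.5 CPM, and the median of the 40 nearest expressed genes was 0.00. Besides ABCC2, ABCC4 (147 and 58.4 CPM), ABCC3 (7.17 and 2.25 CPM) and the vault protein MVP (114 and 53.5 CPM) were lower.

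Of 46 counted thiol defence genes, covering glutathione metabolism and the NRF2 response, 1 (2.17%) was 2-fold higher and 7 (15.2%) were 2-fold lower, against 5.55% and 7.21% of all counted genes, with a median of 0.07. The lower genes were 3 of 12 transferases and 4 of 16 NRF2 targets. GGT1, which breaks down extracellular glutathione, was at 1.13 and 17.6 CPM. The lower genes comprised the transferases MGST1 (62.7 and 9.93 CPM), GSTM3 (98.9 and 17.4 CPM) and GSTM4 (87.0 and 16.9 CPM), the ferritin chains FTL (846 and 271 CPM) and FTH1 (297 and 148 CPM), and ABCC3 and ABCC4. GSTM genes are near copies of each other, and their reads could be divided between them uncertainly. GSTP1 was at 372 and 412 CPM and GCLC, the catalytic subunit of glutathione synthesis, at 35.5 and 37.3 CPM. Of 11 listed metallothioneins 3 were counted, and MT2A was at 1.82 and 4.83 CPM, against 138 CPM in UWB1.289.

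**Figure D3:**
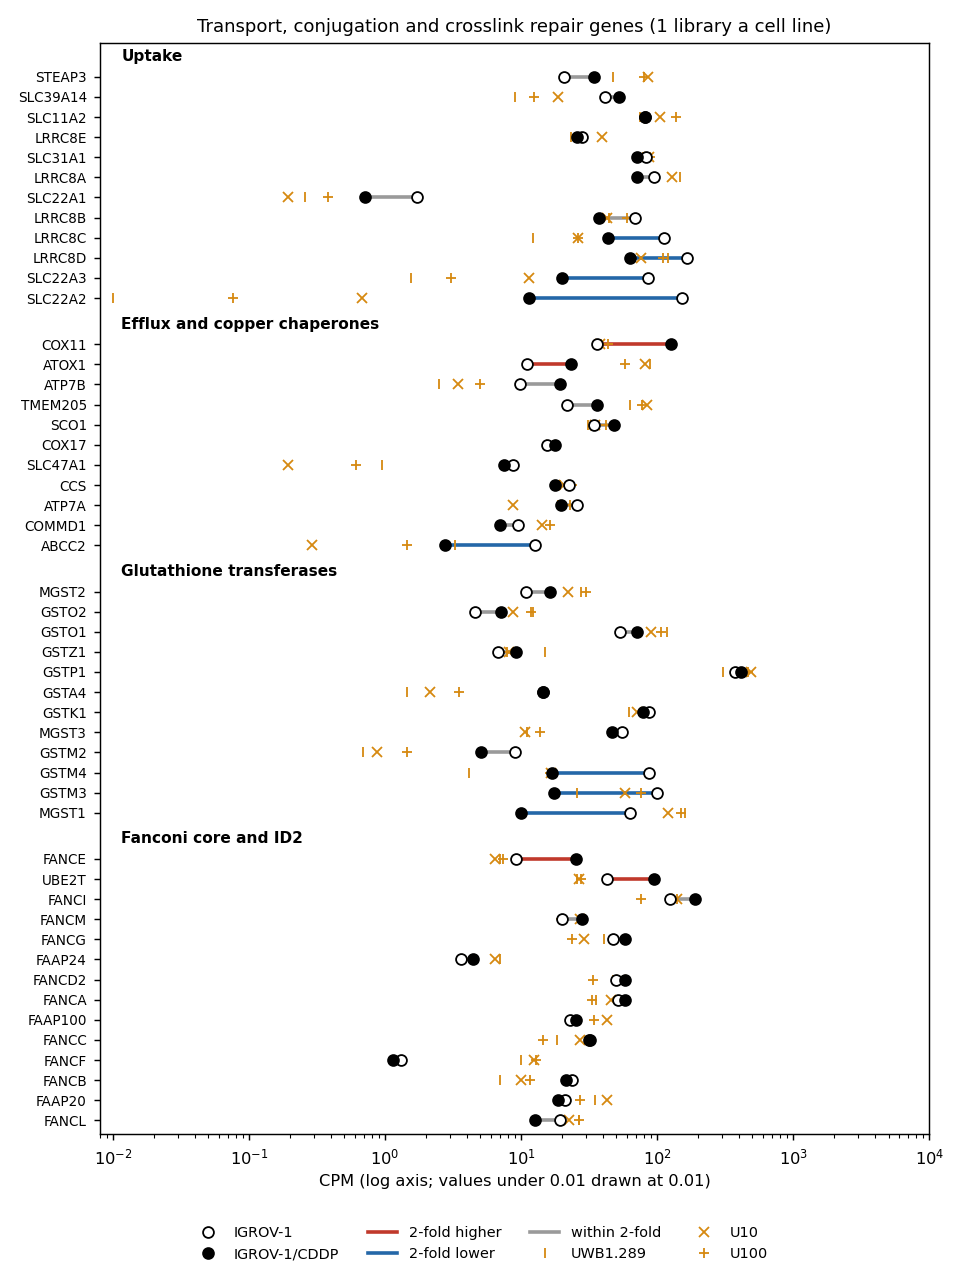
CPM (log axis) of counted genes of cisplatin and copper uptake, efflux, glutathione transfer and the Fanconi pathway in IGROV-1 (open circles) and IGROV-1/CDDP (filled circles), with UWB1.289, U10 and U100 in orange; 1 library for each cell line. The longest blue lines are those of SLC22A2, GSTM3, MGST1 and GSTM4, the longest red line is that of COX11, and SLC31A1, GSTP1 and most Fanconi genes show little separation.

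Excision and mismatch repair genes differed less than 2-fold between the libraries. None of the 29 counted nucleotide excision repair genes and none of the 8 mismatch repair genes reached 2-fold in either direction. Over all counted genes 12.8% did, against which a list of 8 genes is short. The log2 fold changes of the repair genes ranged from -0.47 to 0.72 and from -0.47 to 0.35. ERCC1, a subunit of the nuclease that cuts beside the lesion, was at 29.3 and 28.4 CPM.

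Of 57 counted genes of crosslink repair, homologous recombination and translesion synthesis, 6 (10.5%) were at least 2-fold higher, against 5.55% of all counted genes. At least 2-fold lower were 0 of them, against 7.21%, and the median was 0.13. BRIP1, the helicase FANCJ, was at 39.0 and 163 CPM (2.03 [1.94 to 2.13]). BRCA1 (chr17:41196312-41322262) was at 53.2 and 147 CPM (1.45 [1.37 to 1.54]), RAD51C at 23.1 and 51.7 CPM, the nuclease subunit EME1 at 12.4 and 30.3 CPM, the Fanconi core gene FANCE at 9.20 and 25.3 CPM and the Fanconi ubiquitin-conjugating enzyme UBE2T at 42.5 and 95.3 CPM. All but FANCE and UBE2T lie in a stretch of the long arm of chromosome 17 where most genes were higher.

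That stretch held more genes than any other in which neighbours differed in the same direction. Between FBXL20 and ERN1 (chr17:37408916-62208179, GRCh37), the median of 41 consecutive protein-coding genes stayed at 0.4 or more, and of the 224 such genes with at least 5 CPM, 213 had a log2 fold change above 0 and 105 (46.9%) were at least 2-fold higher, against 5 at least 2-fold lower. Their median was 0.94, with quartiles of 0.49 and 1.27. On the rest of the chromosome the median was 0.23 over the 247 genes before the stretch and 0.07 over the 154 genes after it. Counting all expressed protein-coding genes, 108 of the 731 that were 2-fold higher (14.8%) came from this stretch. The same 224 genes had medians of -0.10 in U10 and 0.03 in U100 against UWB1.289. The window and its limits were set after the values had been seen. The study also profiled DNA copy number of its cell lines by low-coverage genome sequencing. It reported small differences between parental and resistant lines, apart from the pairs derived from HepG2. Those data were not used here, and the part of copy number in the result was not tested.

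Several genes named above and below belong to this stretch, and the level of their neighbours bears on each of them. The median of the 40 nearest expressed genes was 1.02 for BRCA1, 1.04 for RAD51C, 1.04 for EME1, 0.82 for BRIP1, 1.06 for COX11 and 0.61 for KRT19. Relative to these neighbours, RAD51C (0.08), EME1 (0.18) and BRCA1 (0.43) were within 2-fold, COX11 was at 0.72, and BRIP1 (1.22) and KRT19 (1.44) remained past it. PPM1D, a phosphatase that switches off checkpoint kinases, was at 22.7 and 93.2 CPM (1.99 [1.87 to 2.11]), of which 1.08 was left relative to its neighbours. Of the HOX genes, 5 of 6 counted HOXB genes were 2-fold higher, all of them here, led by HOXB9 (0.218 and 11.8 CPM, 2.36 above its neighbours), whereas HOXB4 (5.60 and 12.3 CPM) lay at -0.027 relative to its neighbours.

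**Figure D4:**
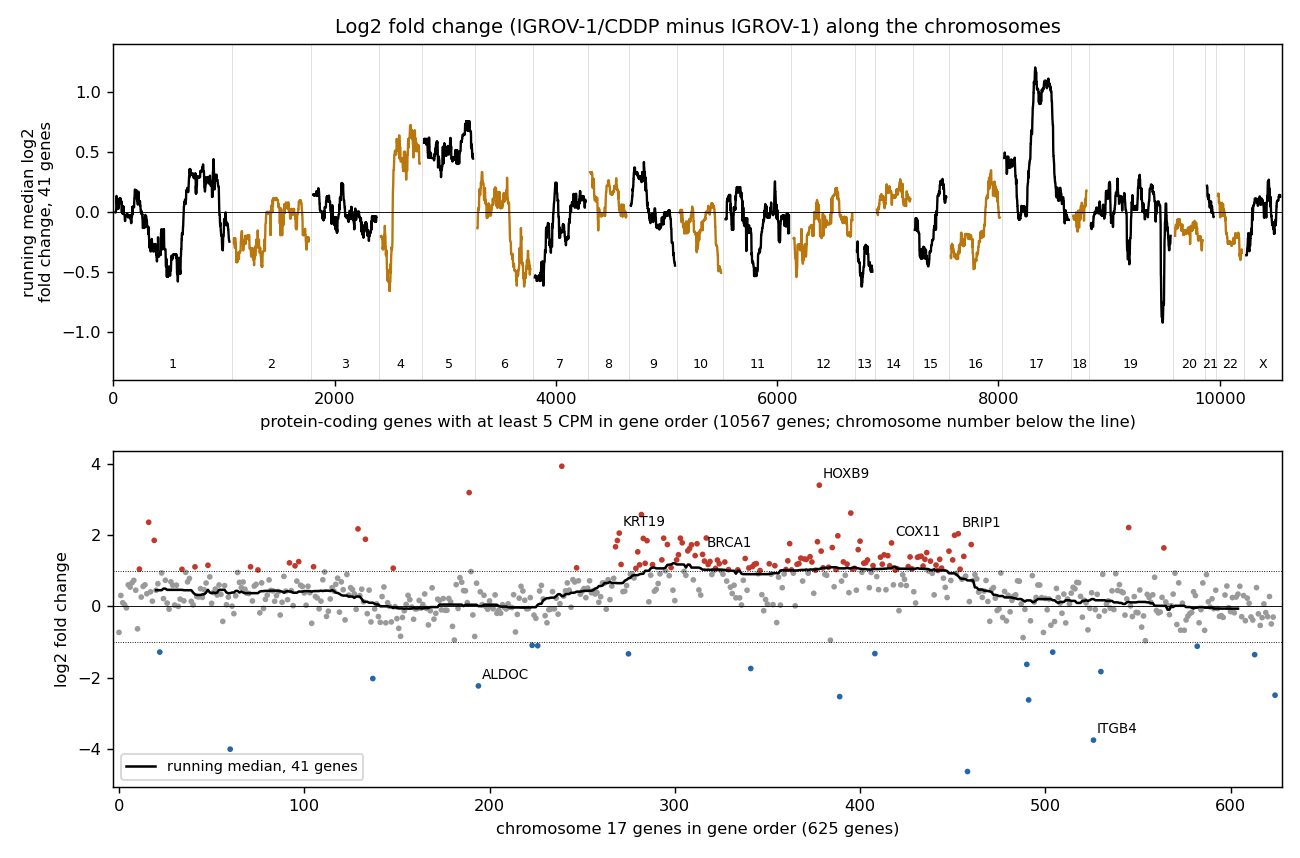
Upper panel, running median over 41 protein-coding genes of the log2 fold change (IGROV-1/CDDP minus IGROV-1) in gene order along each chromosome; lower panel, single genes of chromosome 17 with the same running median. The running median reaches its highest level in the middle of chromosome 17, lies near 0.5 along chromosome 5 and is lowest near the end of chromosome 19.

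Zinc finger genes near the end of chromosome 19 showed the opposite pattern. A run of 15 consecutive counted protein-coding genes from ZNF610 to ZNF347 (chr19:52839496-53662328) was at least 2-fold lower without interruption, with a median log2 fold change of -2.03 and summed levels of 404 and 92.5 CPM. ZNF347 was at 17.4 and 0.396 CPM and ZNF320 at 86.3 and 19.3 CPM. Over all counted ZNF genes, 43 of 199 on chromosome 19 were 2-fold lower and 0 were 2-fold higher (median -0.33), against 13 lower and 3 higher of 217 on other chromosomes (median -0.22). The 15 genes had medians of -0.16 in U10 and 0.07 in U100. These genes are related in sequence, so that the division of reads among them is uncertain.

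Shorter runs were frequent. In total 27 runs of at least 3 consecutive counted genes were 2-fold higher, 15 of them on chromosome 17, and 31 runs were 2-fold lower. One of the latter joined PRKCH (11.1 and 0.752 CPM), HIF1A, SNAPC1 (57.0 and 27.7 CPM) and SYT16 (2.84 and 0.831 CPM) on chromosome 14, and another joined OLR1, TMEM52B and GABARAPL1 (277 and 54.2 CPM) on chromosome 12.

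Among 35 counted genes of damage-induced arrest and death signalling, CDKN1A, a CDK inhibitor that arrests the cycle, was at 56.7 and 71.1 CPM (0.32 [0.23 to 0.42]). Of the 35 genes 2 (5.71%) were 2-fold higher, PPM1D and the death receptor FAS (3.27 and 25.4 CPM). A further 5 (14.3%) were 2-fold lower, and the median was -0.29. A run of 3 neighbouring receptor genes of the death ligand TRAIL on chromosome 8 was 2-fold lower. TNFRSF10B was at 112 and 52.6 CPM, TNFRSF10C at 7.68 and 1.03 CPM and TNFRSF10D at 32.1 and 0.198 CPM. TNFRSF10B carries the death signal, whereas TNFRSF10C and TNFRSF10D are decoys. Of 9 counted survival genes of apoptosis 1 (11.1%) was 2-fold higher, BCL2 at 2.84 and 19.8 CPM, and 0 were 2-fold lower. Of 18 counted death genes 2 (11.1%) were 2-fold higher, among them HRK at 0.582 and 3.01 CPM. BIK, at 12.4 and 4.11 CPM, was the only 1 that was 2-fold lower (5.56%). Over all counted genes 5.55% were 2-fold higher and 7.21% 2-fold lower. HRK and BIK are both BH3-only proteins that promote death.

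None of the 22 replication genes and none of the 19 mitosis genes reached 2-fold. Of 17 counted G1 regulators 4 were higher, including the CDK inhibitors CDKN2A (5.42 and 17.01 CPM) and CDKN2B (0.982 and 7.48 CPM), adjacent genes of chromosome 9.

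Of 45 counted receptor kinases and ligands, 9 (20.0%) were 2-fold higher and 12 (26.7%) were 2-fold lower, against 5.55% and 7.21% of all counted genes. Their median was 0.03. The insulin-like growth factor receptor IGF1R was at 601 CPM in IGROV-1, above all 18 other libraries, against 65.9 CPM in the resistant cells (-3.17 [-3.24 to -3.10]), whereas its ligand IGF2 was at 0.327 and 24.5 CPM. EGFR was at 456 and 223 CPM, while NRG1, the ligand of ERBB3 and ERBB4, had 2 counts (0.0728 CPM) in IGROV-1 against 14.1 CPM in the resistant cells. Besides EPHA7 and EPHA3, EPHA4 (4.26 and 24.3 CPM) and the ligand EFNB2 (0.0364 and 4.79 CPM) were higher and EPHB3 (4.95 and 1.42 CPM) lower. ROR1 was at 2.51 and 20.4 CPM, and GAS6, the ligand of AXL, at 12.8 and 2.61 CPM. Of 19 counted ERK pathway outputs, 7 were higher, among them SPRY4 (4.95 and 15.0 CPM) and PHLDA1 (10.0 and 43.6 CPM), and 3 were lower, with FOSL1, an AP-1 subunit, at 52.9 and 1.82 CPM.

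Of 48 counted Wnt, Notch and TGF-beta genes, 10 (20.8%) were 2-fold higher and 10 (20.8%) were 2-fold lower, against 5.55% and 7.21% of all counted genes. The bone morphogenetic proteins differed in opposite directions, with BMP4 at 11.2 and 111 CPM and BMP2 at 66.2 and 4.11 CPM. WNT7A was at 42.1 and 0.910 CPM, LGR5 at 11.8 and 0.396 CPM, and the inhibitor of differentiation ID4 at 163 and 24.3 CPM. NOTCH3 was at 63.1 and 20.3 CPM and HEY1, a target of Notch, at 0.910 and 8.27 CPM.

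Of 21 counted genes of ovarian and Müllerian lineage, 8 (38.1%) were 2-fold higher and 1 (4.76%) was 2-fold lower, against 5.55% and 7.21% of all counted genes. Their median was 0.36. Most of the higher genes were surface and secreted proteins, of which 6 of 9 were 2-fold higher and 0 were 2-fold lower (median 1.39). Of 12 lineage transcription factors 2 were 2-fold higher and 1 was 2-fold lower, with a median of -0.17. PAX2, a transcription factor of the Müllerian duct and kidney, was at 1.13 and 20.1 CPM, NR2F1 at 4.29 and 25.5 CPM, the phosphate transporter SLC34A2 at 136 and 638 CPM and the retinoic acid carrier CRABP2 at 4.95 and 47.0 CPM. The granulosa cell factor FOXL2 was lower, at 2.29 and 0.0791 CPM. PAX8 was within 2-fold (-0.37 [-0.40 to -0.33]).

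Among stress responses, 6 of 35 counted genes (17.1%) were 2-fold higher and 1 (2.86%) was 2-fold lower, against 5.55% and 7.21% of all counted genes. HSPB8, a small heat shock protein of the same family as CRYAB, was at 15.9 and 55.5 CPM, and PSAT1 (231 and 509 CPM) and ASNS (23.6 and 56.4 CPM), enzymes of serine and asparagine synthesis driven by ATF4, were higher. DDIT4, an inhibitor of mTORC1 that responds to stress and hypoxia, was lower, at 73.6 and 7.00 CPM. Of 37 counted interferon and antigen presentation genes, 6 were higher, led by GBP1 (1.965 and 36.0 CPM).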

How the data were processed

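Messenger RNA libraries had been prepared with a stranded kit per the labels, and the authors' processing notes name Bowtie, TopHat, SAMtools and HTSeq with genome build hg19, without versions; whether counting used strand is not given in the sources used here. The deposited values were raw counts per gene. HTSeq's entries for unassigned reads were left out of the totals (57.2% and 58.8% of all listed reads were on genes). Gene names and positions came from GENCODE on GRCh37 (45100 of 53515 identifiers matched), and counted genes without a name numbered 960. CPM was calculated from the total on genes, and log2 fold changes from CPM + 1. The 95% intervals combine the Wilson intervals of both libraries, and ratios carry exact (Clopper-Pearson) intervals. Intervals and floors of 3 counts per library cover counting error only, since reads carried no molecular identifiers. The procedure was tested on simulated data.

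Some genes are not reported here. No p-values were calculated because each cell line had 1 library. Genes were listed in 32 lists, of which 18 members were without a match and were not analysed here. The members and lists were chosen with earlier results of these data known. Named genes were the 12 highest and 12 lowest protein-coding genes with at least 10 CPM in a library, up to 3 in each direction per list role past 2-fold with an interval leaving out 0, a set of cisplatin and lineage genes named regardless of value (including SLC31A1, ERCC1, BRCA1 and PAX8), 3 non-coding genes in each direction, and genes in runs of at least 3 neighbours. EPAS1, ENO1, LDHA, LDHB, GAPDH, PFKP, PDK1, PDK3, BNIP3, P4HA1, LRRC8C, MVP, FTH1, RUNDC3B, markers below 1 CPM and the stretches of neighbouring genes were named after their values were seen. The replicate comparison of HCC4006P1 left out the genes after the last one with at least 10 counts in replicate 1, ordered by chromosome and start, since that library had under 10 counts for every gene from there on. Alternatives comprised pseudocounts of 0.1 and 5 CPM, TMM library sizes (edgeR 4.0.16), median-of-ratios sizes, totals without mitochondrial genes, filters and gene classes.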

Additional observations from a re-analysis of the deposited data

Results flagged for a closer look

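Among 379 named genes, 17 were at least 2-fold different in the IGROV-1 pair and at least 2-fold different in the opposite direction in both U10 and U100 against UWB1.289, and these were singled out for that contrast between the ovarian pairs. The difference between the pairs was not tested, each cell line having 1 library, and U10 and U100 share UWB1.289 as parental line. Over all counted genes, of 817 genes 2-fold higher in IGROV-1/CDDP, 69 were 2-fold higher and 6 were 2-fold lower in both U10 and U100. Of 1062 genes 2-fold lower in it, 22 were 2-fold lower and 47 were 2-fold higher in both. Among all 14732 counted genes, 648 were 2-fold higher and 587 lower in U10, and 617 higher and 203 lower in U100. The share of all counted genes past 2-fold in both lines was not calculated, so no contrast between the pairs is drawn from these counts. Of the 17, 16 were lower in IGROV-1/CDDP and higher in both olaparib-resistant lines, by 1.03 to 3.58 (U10) and 1.04 to 3.52 (U100) on the log2 scale. In the IGROV-1 pair, the glutathione transferases GSTM3 (-2.44) and GSTM4 (-2.30) belonged to them, as did the stem cell receptor LGR5 (-3.20), endothelin EDN1 (-2.90), the AXL ligand GAS6 (-1.93), lysyl oxidase LOX (-1.56), the fatty acid desaturase FADS2 (-1.97) and the NF-kappaB inhibitor TNFAIP3 (-1.08). The same held for PLBD1 (-5.15), OLFML2A (-3.20), PLSCR1 (-2.58), PLPP3 (-2.45), CHST2 (-2.08), STUM (-1.35), NAP1L5 (-1.32) and CLDN16 (-1.13). KRT15 was the only gene of the opposite kind, with 1.84 in IGROV-1/CDDP, -1.303 in U10 and -1.47 in U100. TNFAIP3 was at 11.7 and 5.02 CPM in the IGROV-1 pair and at 90.8, 213 and 280 CPM in UWB1.289, U10 and U100.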

How the results depend on the processing

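No paired analysis was possible because each cell line had 1 library and no result came from a test, and leaving out a replicate was not possible for the same reason. A pseudocount of 5 CPM gave 419 genes at least 2-fold higher and 550 lower, and 57 higher and 107 lower at 4-fold. A pseudocount of 0.1 CPM gave 364 genes higher and 494 lower at 4-fold. With TMM library sizes 939 genes were 2-fold higher and 928 lower, with the median of all counted genes at 0.02 instead of -0.06. The other library sizes, the filters, protein-coding genes only and genes whose interval left out 0 kept the 2-fold and 4-fold counts within 1.5 times, as did the pseudocount of 0.1 CPM at 2-fold. Alternatives added after seeing the data were the removal of chromosome 17, which left 681 genes 2-fold higher, and the log2 fold change relative to the median of 40 neighbouring genes, which was taken over protein-coding genes with at least 5 CPM and gave 437 higher and 647 lower. The filter at 5 CPM alone gave 625 and 823. Relative to neighbours, CLTC (-0.0071), HOXB4 (-0.027), ITGA3 (-0.042), PDK2 (-0.052) and CALCOCO2 (-0.0020), all on chromosome 17, changed sign among genes past 2-fold; they were at the level of their neighbours. Of the 366 named genes past 2-fold, 352 remained past it with TMM and 271 with the pseudocount of 5 CPM, and none of them changed sign under the pseudocounts and library sizes tried. Relative to neighbours, 214 of the 320 that could be compared remained past 2-fold. ERCC1 changed sign with TMM and median-of-ratios sizes. Median log2 fold change declined with transcript length, from 0.04 among genes with the shortest transcripts to -0.12 among those with the longest, when genes were divided into 4 groups of equal size. A count of 0 allows levels of up to 3 counts (0.109 and 0.119 CPM) at this depth.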

Other observations

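Voltage-gated sodium channel genes of chromosome 2 differed in opposite directions over a short distance. SCN3A (chr2:165944036-166060560) was at 0.109 and 7.48 CPM in IGROV-1 and IGROV-1/CDDP, and the adjacent SCN2A (chr2:166051503-166248820) at 4.51 and 15.7 CPM. The next members of the cluster, SCN9A (chr2:167051695-167232511) and SCN7A (chr2:167260083-167467992), were at 6.11 and 0.158 CPM and at 32.7 and 0.237 CPM. The medians of their 40 nearest expressed genes were -0.14 for the first pair and -0.03 for the second. SCN3A had no count in UWB1.289, U10 and U100.

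Of the non-coding genes, LINC01819 (13.6 and 0.0791 CPM), LINC01474 (10.9 and 0.0791 CPM) and PURPL (10.1 and 0.396 CPM) had the largest negative log2 fold changes, and STARD4-AS1 (1.49 and 10.4 CPM) was among the 3 with the largest positive ones, although it lies antisense to another gene and strand use in counting is not known.

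On chromosome 5 the 567 counted protein-coding genes had a median log2 fold change of 0.47, and 11.99% of them were at least 2-fold higher, against 5.92% of all protein-coding genes. Chromosome 13 had the lowest median, -0.42 over 207 genes, with 14.5% at least 2-fold lower. On chromosome 4, the 39 genes from NCAPG to SLC30A9 (chr4:17812602-42092478) had a median of -0.59 and the 111 genes from ZGRF1 to NEIL3 (chr4:113460489-178284090) one of 0.58. The latter stretch includes ANXA5, at 489 and 1369 CPM, the latter above all 18 other libraries. In U10 and U100 the same 111 genes had medians of 0.05 and 0.06. Copy number data of the study were not used here.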
